A study of Mus musculus with 9 samples.

Results

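The genes described here are interferon-stimulated genes, the genes that cells switch on when they sense interferon, in cortical neurons, native neural stem cells (NSCs) and neural stem cells obtained from neurons with YAP (yNSCs). They were taken from a list of 37 such genes, and each was read from 1 probe set, the one named by that gene alone with the highest mean over the 9 arrays. Of the 37 genes, 35 were measured in this way among 18193 named genes. Isg15 was left out because its probe set also names a second gene, and Ifi44 because no probe set carried its name. Total RNA from mouse cells was read on 9 Affymetrix arrays, with 3 biological replicates (A, B and C) in each of 3 groups. Neurons were primary cortical cultures kept in Neurobasal with B27 and AraC, a compound that removes dividing cells. NSCs were expanded in DMEM/F12 that held N2, EGF, bFGF, heparin and glutamine. The yNSCs were derived from cortical neurons by lentiviral delivery of rtTA and a doxycycline-inducible wild-type YAP, the transcriptional coactivator of the Hippo pathway, and shared the medium of the NSCs. The neurons came from late embryos or newborn pups, and the yNSCs were passaged without doxycycline once formed. The strain, and the passage at which these yNSCs were taken, are not given in the sources used here. No array held neurons that were transduced but not converted. Against neurons, viral transduction, doxycycline, the change of medium and the conversion itself came together in yNSCs and cannot be told apart. Against NSCs the medium was shared, while transduction, doxycycline and the origin from neurons still came together and cannot be told apart.

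Interferons are secreted proteins that infected cells release after receptors for foreign RNA or DNA have been triggered. Type I interferons bind a receptor made of IFNAR1 and IFNAR2, whose kinases JAK1 and TYK2 phosphorylate STAT2. With IRF9 it forms part of a complex, ISGF3, that binds a DNA motif called the interferon-stimulated response element (ISRE). Interferon gamma acts through a receptor of its own and a different motif, the gamma-activated sequence (GAS). The genes switched on in this way hinder viruses at entry, translation, replication and release, and several of them feed back on the pathway. Stem cells are known for keeping some of these genes at a level set without interferon.

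Such motifs usually lie near the start of a gene. For that reason promoters are shown for some genes higher in yNSCs than in both other groups, and for 1 gene lower than in neurons. The genes shown do not stand for the whole list. RefSeq windows (GRCm38.p6) from 250 bases before to 50 bases after a start were found for 29 of the 37 genes, as 35 windows. Usp18, Dhx58, Mx1, Mx2, Iigp1, Parp9, Parp14 and Rtp4 had no window. The ISRE-type motif searched was GAAANNGAA, on both strands. It was present in 51.4% of the genes' windows and in 8.56% of all 32851 windows of that length. Ifit1 (chr19:34640639-34640888, plus strand) and Ifit3 (chr19:34583279-34583528, plus strand) each held 3 matches in the 250 bases before the start. Gbp2 (chr3:142620413-142620662, plus strand) and Rsad2 (chr12:26456453-26456702, minus strand) held 1 each. Xaf1 (chr11:72301379-72301628, plus strand), which was higher in yNSCs than in both other groups, and Ifitm1 (chr7:140967826-140968075, plus strand), which was lower in yNSCs than in neurons, held none. Adar, also lower in yNSCs than in neurons and not printed, held 2 matches in 1 of its windows, 1 of them before the start. For the genes shown, the 250 bases before each start are printed 5′ to 3′ on the strand of the gene, with matches on either strand in capitals.
Ifit1: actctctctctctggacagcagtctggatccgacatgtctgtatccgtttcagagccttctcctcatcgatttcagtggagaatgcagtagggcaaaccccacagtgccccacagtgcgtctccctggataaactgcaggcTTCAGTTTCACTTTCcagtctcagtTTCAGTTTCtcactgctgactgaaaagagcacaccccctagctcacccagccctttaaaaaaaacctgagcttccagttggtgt
Ifit3: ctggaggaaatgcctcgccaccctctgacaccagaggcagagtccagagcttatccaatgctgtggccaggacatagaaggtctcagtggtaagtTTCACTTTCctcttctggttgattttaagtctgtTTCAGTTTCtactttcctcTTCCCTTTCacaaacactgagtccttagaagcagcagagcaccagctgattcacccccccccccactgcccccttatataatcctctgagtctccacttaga
Gbp2: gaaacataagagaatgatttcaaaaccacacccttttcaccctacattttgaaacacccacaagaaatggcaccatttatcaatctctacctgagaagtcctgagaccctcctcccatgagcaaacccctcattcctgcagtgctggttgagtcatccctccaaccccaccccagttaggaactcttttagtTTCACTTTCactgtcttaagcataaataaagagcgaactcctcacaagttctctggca
Rsad2: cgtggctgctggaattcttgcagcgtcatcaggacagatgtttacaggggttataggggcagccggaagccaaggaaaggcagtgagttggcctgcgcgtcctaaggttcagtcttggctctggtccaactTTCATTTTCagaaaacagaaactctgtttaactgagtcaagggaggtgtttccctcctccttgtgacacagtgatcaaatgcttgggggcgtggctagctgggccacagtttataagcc
Xaf1: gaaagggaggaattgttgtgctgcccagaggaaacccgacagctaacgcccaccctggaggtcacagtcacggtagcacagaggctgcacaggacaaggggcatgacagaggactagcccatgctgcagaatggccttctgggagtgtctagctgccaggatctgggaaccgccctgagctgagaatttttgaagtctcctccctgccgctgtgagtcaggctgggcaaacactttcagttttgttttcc
Ifitm1: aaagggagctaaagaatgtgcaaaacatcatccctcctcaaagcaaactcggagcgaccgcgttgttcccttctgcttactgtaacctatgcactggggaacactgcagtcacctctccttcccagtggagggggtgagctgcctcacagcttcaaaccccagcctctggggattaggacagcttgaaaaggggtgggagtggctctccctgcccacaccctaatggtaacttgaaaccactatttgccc

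A longer form of the motif, with 1 more A at its end, was found in 14 of the 35 windows and in 3.44% of all windows. The GAS-type motif TTCNNNGAA was found in 8 windows of these genes (22.9%) and in 8.30% of all windows, and in 2 windows of these genes it overlapped an ISRE-type match. The matches in Ifit1 began 109, 103 and 84 bases before the start, and those in Ifit3 began 155, 121 and 102 bases before it. In Gbp2 the match lay 58 bases and in Rsad2 119 bases before the start. A match is a description of these letters and no evidence of binding in these cells.

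The arrays were alike in scale, with medians between 4.90 and 5.02 and lower quartiles between 3.42 and 3.73 on the log2 scale. A gene is called near background below where its group mean lies under the mean lower quartile of that group, since such values say little about the amount of RNA. The 10 neuron markers were lower in yNSCs and in NSCs than in neurons (10 of 10 each, beside 27.9% and 34.1% of all genes). Of the 10 neural stem cell markers, 7 and 8 were higher (34.6% and 33.3% of all genes) and 0 and 1 were lower. In yNSCs against NSCs, 2 stem cell markers were higher and 4 lower, and 4 neuron markers were higher and 3 lower. Of all genes, 21.3% were higher and 18.0% lower in that comparison. Yap1 lay between 9.17 and 9.20 in yNSCs, between 7.10 and 7.62 in neurons and between 9.52 and 9.87 in NSCs. Whether its probe set reads the transgene is not given. The 16 markers of microglia and macrophages, cells that answer interferon, were high in the neuron cultures, where C1qa lay between 10.12 and 10.59. Their log2 values summed to between 120.3 and 127.4 in neurons, between 61.3 and 62.7 in NSCs and between 77.4 and 78.8 in yNSCs. Of the 16, 15 were lower in yNSCs than in neurons and 10 were higher in yNSCs than in NSCs, with a median difference from NSCs of 0.71 and a range from -0.13 to 4.2. The largest was that of Cd68, between 8.24 and 8.62 in yNSCs and between 3.96 and 4.52 in NSCs. In bulk RNA, fewer cells of a type and less RNA per cell cannot be told apart, and the part of such cells in the values below was not tested.

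Interferon-stimulated genes were high in yNSCs against both other groups. Against neurons, 31 of the 35 were higher, 2 were lower and 2 were not called, at a Benjamini-Hochberg adjusted p under 0.05 over all genes in a limma fit. Among all 18193 genes, 34.6% were called higher and 27.9% lower in this comparison. The median log2 difference of the 35 genes was 2.23, where that of all genes was -0.01. Of the 35, 27 were called higher by 2-fold or more, as were 3336 of all 18193 genes. The rule that picks a probe set by its mean counts the yNSC arrays too, which can favour probe sets high in yNSCs. With probe sets averaged within each gene, the median difference of the 35 genes from neurons was smaller, at 1.79, and 31 were still called higher. Against NSCs, 27 were higher, 1 was lower and 7 were not called, where 21.3% of all genes were called higher and 18.0% lower. The median log2 difference from NSCs was 1.36 for these genes and 0.07 for all genes. Of the 35, 23 were called higher than in NSCs by 2-fold or more, as were 1102 of all 18193 genes. Both comparisons use the same 3 yNSC arrays and so are not independent of each other. All 3 yNSC arrays lay above all 6 others for 26 of the 35 genes, as was so for 15.0% of all genes, and below all 6 for 0 of 35, where the share over all genes was 7.72%. With 3 arrays against 3, an exact permutation test on a single gene cannot give a two-sided p below 0.1, so the calls rest on the spread shared over genes in the fit.

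**Figure D1:**
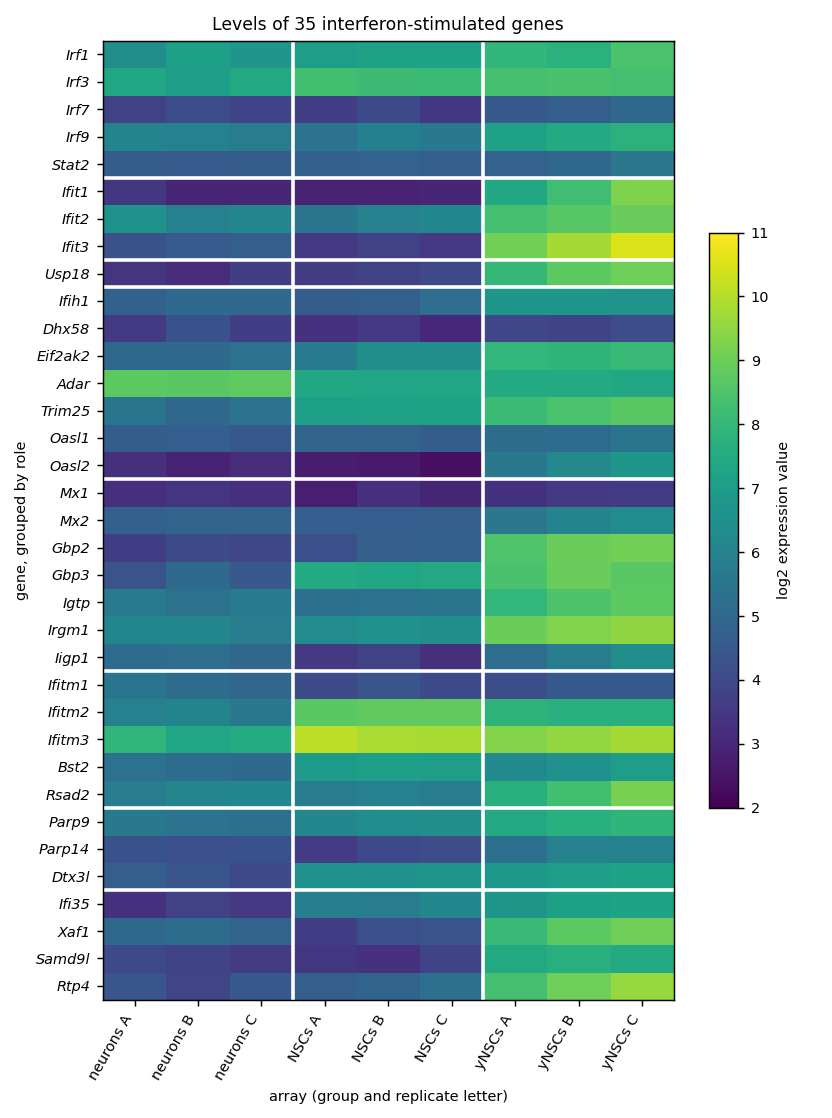
Log2 expression value (colour, from 2 to 11) of the 35 measured interferon-stimulated genes (rows, grouped by role in the order regulators, IFIT proteins, Usp18, RNA sensors, GTPases, membrane-associated proteins, ADP-ribosylation, others) in each of the 9 arrays (columns). The 3 yNSC columns are brighter than the 6 others for most rows, with Adar and Ifitm1 among those for which they are not.

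**Figure D2:**
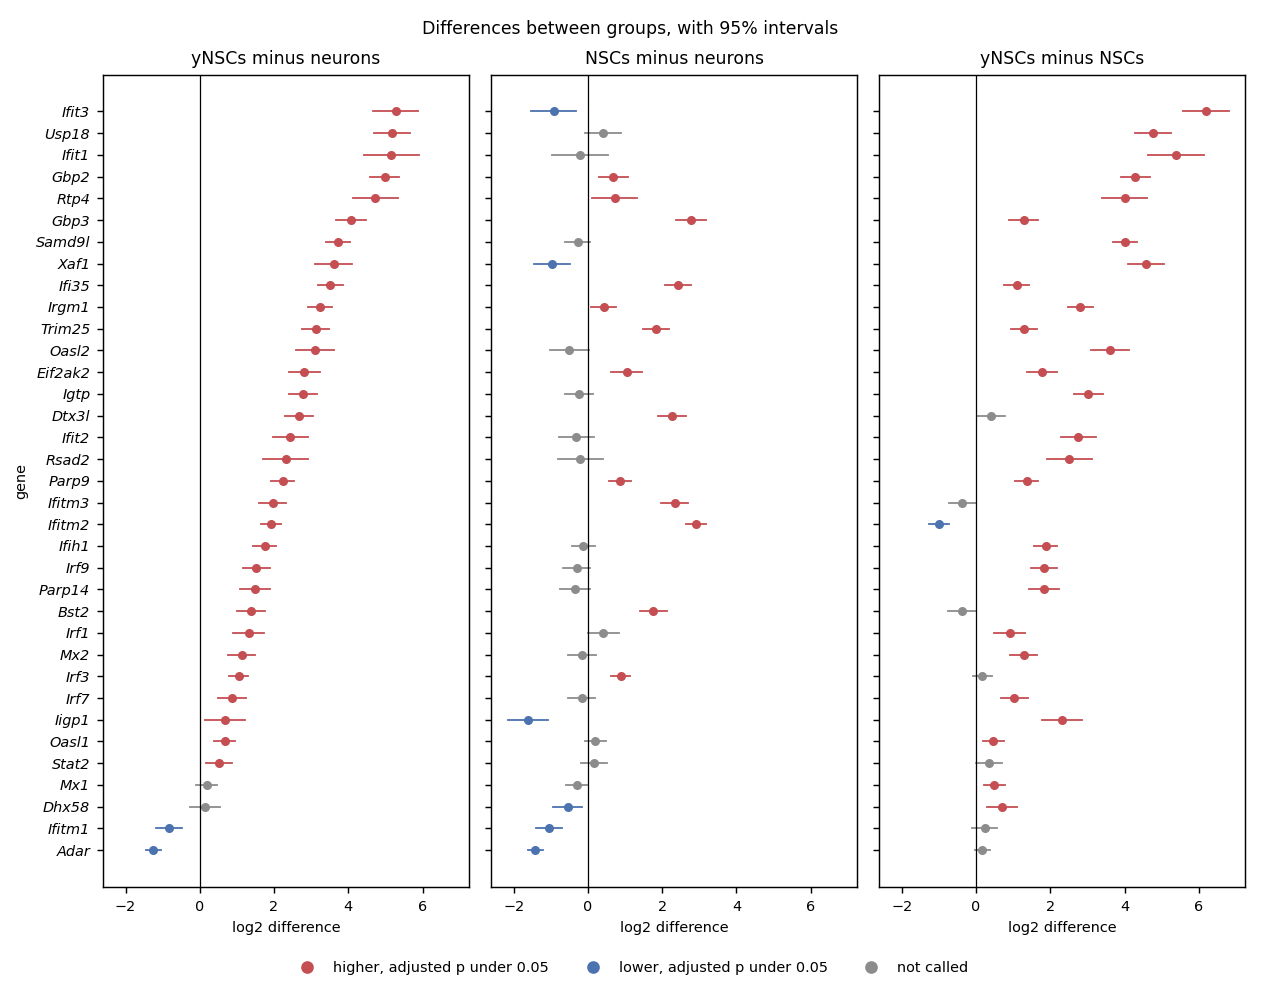
Log2 difference (points) with its 95% interval (lines) of each gene for yNSCs minus neurons, NSCs minus neurons and yNSCs minus NSCs, ordered by the first of these. Red points are genes called higher and blue points genes called lower at an adjusted p under 0.05, and grey points were not called. The first panel holds 31 red and 2 blue points, the second 13 and 6, and the third 27 and 1.

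The 5 transcription factors among the 35 genes were higher in yNSCs than in neurons in 5 of 5 cases and higher than in NSCs in 3 of 5. The shares over all genes were 34.6% and 21.3%. Other factors of the pathway, such as Irf8, which was lower in yNSCs than in neurons, and Stat3, are counted with the signalling genes below. Irf9, the DNA-binding part of ISGF3, read 6.07, 5.94 and 5.83 in neurons, 5.42, 5.88 and 5.63 in NSCs and 7.14, 7.50 and 7.78 in yNSCs (replicates A, B and C). The yNSC arrays stood above all others, with no overlap. Irf9 was 2.88-fold higher in yNSCs than in neurons (log2 difference 1.53 ± 0.16, SE, adjusted p = 4.6e-06) and 3.56-fold higher than in NSCs (1.83 ± 0.16, adjusted p = 2.9e-06). Irf7, which amplifies the interferon response, read 3.75, 4.12 and 3.81 in neurons, 3.68, 4.02 and 3.46 in NSCs and 4.52, 4.71 and 5.03 in yNSCs. It was low in every group, and its yNSC values lay above the others by less than those of Irf9 did. The log2 difference was 0.86 ± 0.17 from neurons (adjusted p = 0.00075) and 1.03 ± 0.17 from NSCs (adjusted p = 0.00040).

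Irf1, a factor that binds the same kind of element and is itself a target of interferon gamma, read 6.43, 7.07 and 6.68 in neurons, 7.03, 7.20 and 7.17 in NSCs and 7.92, 7.75 and 8.46 in yNSCs. The groups did not overlap between yNSCs and the rest, while neurons and NSCs did. It was higher in yNSCs by 1.32 ± 0.19 against neurons (adjusted p = 6.2e-05) and by 0.91 ± 0.19 against NSCs (adjusted p = 0.0022). Irf3, the factor that switches on interferon genes after foreign nucleic acid is sensed, read 7.41, 7.06 and 7.48 in neurons, 8.26, 8.17 and 8.15 in NSCs and 8.35, 8.40 and 8.34 in yNSCs. NSCs and yNSCs lay close together and both above neurons, and the log2 difference between them was 0.17 (95% interval -0.09 to 0.43, adjusted p = 0.295). Among its 3 other probe sets, 2 were called higher in yNSCs than in NSCs (0.44 each, adjusted p = 0.043 and 0.014). Of its 3 other probe sets, 1 went down in NSCs against neurons (-0.58, adjusted p = 0.0060), so the direction of Irf3 in that comparison depends on the probe set. Stat2, a partner of IRF9, read 4.64, 4.57 and 4.64 in neurons, 4.80, 4.82 and 4.73 in NSCs and 4.82, 5.0 and 5.56 in yNSCs. Replicate A equalled the highest NSC array, and replicates B and C lay above it. The log2 difference of Stat2 was 0.51 ± 0.16 from neurons (adjusted p = 0.014) and 0.34 ± 0.16 from NSCs (adjusted p = 0.112). Without yNSCs C these were 0.29 (adjusted p = 0.041) and 0.13 (adjusted p = 0.45), and without yNSCs A the difference from NSCs was called (0.50, adjusted p = 0.030). Its other probe set was called against NSCs (0.73, adjusted p = 0.012).

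IFIT proteins bind foreign RNA and block its translation. Ifit3, which had the largest difference of the 35 genes in both comparisons, read 4.24, 4.57 and 4.74 in neurons, 3.51, 3.79 and 3.49 in NSCs and 9.08, 9.78 and 10.52 in yNSCs. It was among the low genes of both reference groups and among the high genes of yNSCs, and the gap between groups was several times the spread within them. Ifit3 was 38.8-fold higher in yNSCs than in neurons (5.28 ± 0.28, adjusted p = 7.0e-09) and 73.3-fold higher than in NSCs (6.20 ± 0.28, adjusted p = 9.1e-09). Ifit1 read 3.47, 2.98 and 2.97 in neurons, 2.89, 2.89 and 2.97 in NSCs and 7.40, 8.24 and 9.27 in yNSCs. It was near background in neurons and NSCs, so these folds start from a level the array resolves poorly. The log2 difference of Ifit1 was 5.16 ± 0.34 from neurons (adjusted p = 5.5e-08) and 5.39 ± 0.34 from NSCs (adjusted p = 1.6e-07). Ifit2, the third family member, started higher, at 6.58, 5.91 and 6.09 in neurons and 5.51, 5.93 and 6.19 in NSCs, and read 8.31, 8.65 and 8.94 in yNSCs. It was higher by 2.44 against neurons (adjusted p = 7.4e-07) and by 2.76 against NSCs (adjusted p = 8.9e-07), again without overlap.

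Usp18, the protease that takes the ubiquitin-like ISG15 off proteins and dampens signalling at IFNAR2, read 3.37, 3.16 and 3.66 in neurons, 3.65, 3.78 and 3.99 in NSCs and 7.99, 8.74 and 9.00 in yNSCs. It was near background in neurons. Usp18 was 36.3-fold higher in yNSCs than in neurons (5.18 ± 0.22, adjusted p = 1.2e-09) and 27.3-fold higher than in NSCs (4.77 ± 0.22, adjusted p = 1.2e-08).

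**Figure D3:**
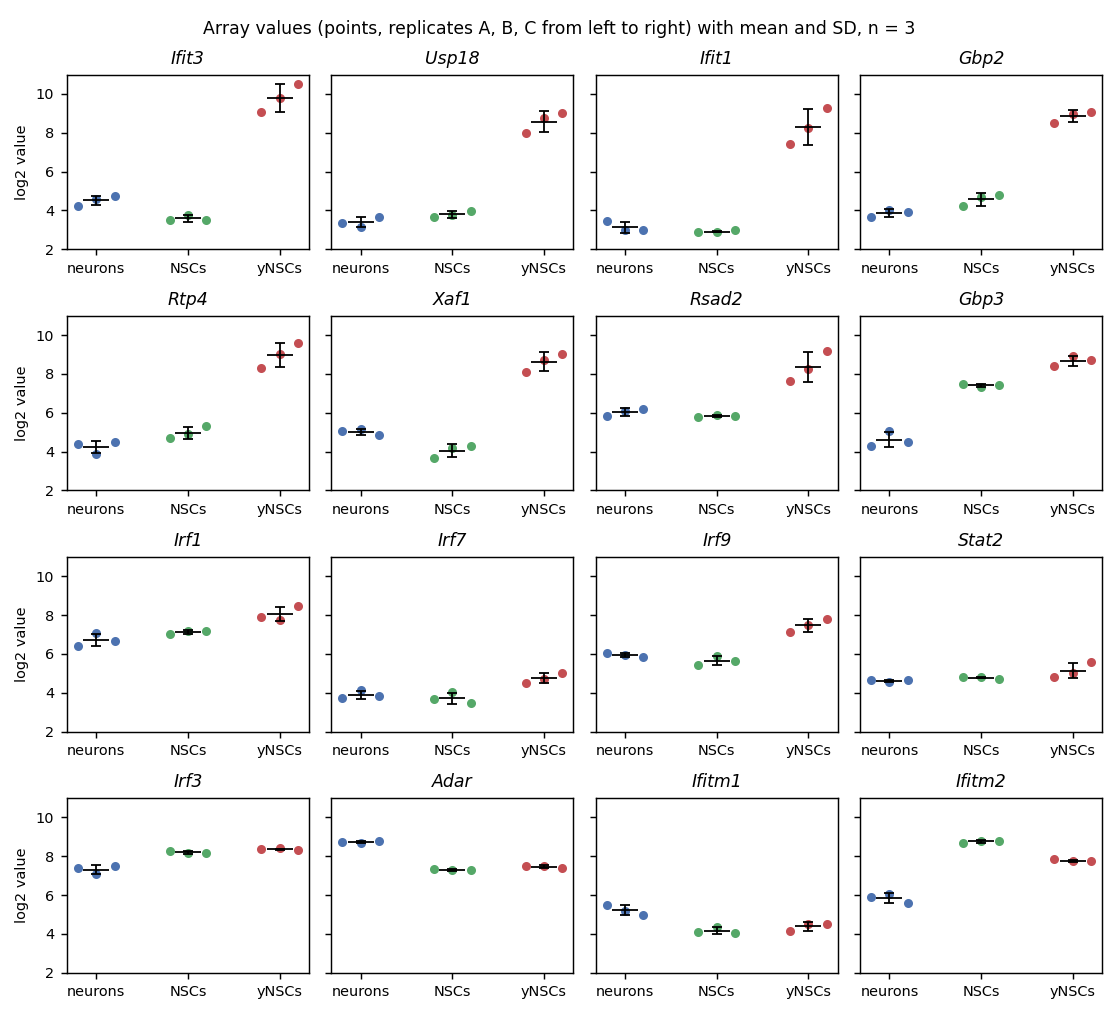
Log2 value (vertical axis, 2 to 11) of 16 interferon-stimulated genes in neurons, NSCs and yNSCs, with each array as a point and the mean and SD of 3 arrays in black. The yNSC points of Ifit3, Usp18, Ifit1, Gbp2, Rtp4, Xaf1 and Rsad2 lie above all others with wide gaps, while Irf3 is alike in NSCs and yNSCs, Adar and Ifitm1 are highest in neurons and Ifitm2 is highest in NSCs.

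Among the 7 genes for RNA sensors and RNA-binding proteins, yNSCs exceeded neurons in 5 and fell below them in 1, and 6 were higher than in NSCs. The shares over all genes were 34.6%, 27.9% and 21.3%, in that order. Trim25, a ubiquitin ligase of the RIG-I pathway, read 5.50, 4.99 and 5.42 in neurons, 7.07, 7.16 and 7.17 in NSCs and 8.12, 8.44 and 8.70 in yNSCs. The groups formed 3 separate steps, with log2 differences of 3.12 ± 0.16 from neurons (adjusted p = 6.0e-09) and 1.29 ± 0.16 from NSCs (adjusted p = 4.8e-05). One other probe set of Trim25 gave 3.77 and 1.36, and a second, of lower level, 0.83 (adjusted p = 0.0021) and 0.40 (adjusted p = 0.118). Oasl2, an oligoadenylate synthetase-like protein, was near background in neurons and NSCs and lay between 5.58 and 6.77 in yNSCs, 3.11 above neurons and 3.61 above NSCs. Ifih1, which encodes the double-stranded RNA sensor MDA5, lay 1.74 above neurons and 1.87 above NSCs, with yNSC values between 6.66 and 6.77. Eif2ak2 encodes PKR, a kinase that stops translation when it meets double-stranded RNA. Its main probe set lay 2.82 above neurons and 1.78 above NSCs, but 1 of its 2 other probe sets was called in the opposite direction against neurons (-0.77, adjusted p = 0.013). Oasl1 differed by less, 0.67 from neurons and 0.47 from NSCs (adjusted p = 0.00051 and 0.010), and without yNSCs C the latter was 0.36 (adjusted p = 0.052). Dhx58, which encodes LGP2, lay between 3.27 and 3.96 in its group means and was called against NSCs (0.69, adjusted p = 0.0095) but not against neurons (0.14, 95% interval -0.26 to 0.54, adjusted p = 0.52). Without neurons B the difference from neurons was 0.37 and was called. Dhx58 was near background in NSCs. Its other probe sets, of lower level, differed from NSCs by 0.08 (adjusted p = 0.65) and 0.32 (adjusted p = 0.049). From neurons they differed by 0.31 (adjusted p = 0.032) and 0.10 (adjusted p = 0.48).

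Adar, whose enzyme edits adenosines in double-stranded RNA and keeps it from triggering the sensors, went the other way. It read between 8.68 and 8.77 in neurons, 7.28 and 7.35 in NSCs and 7.39 and 7.50 in yNSCs, so that neurons stood above both other groups with no overlap. Adar was lower by 1.26 ± 0.09 in yNSCs than in neurons (adjusted p = 1.3e-07), and its difference from NSCs was 0.16 (95% interval -0.04 to 0.36, adjusted p = 0.202). Both other probe sets of Adar were also called lower in yNSCs than in neurons.

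Of the 7 genes for antiviral and immunity GTPases, 6 were higher in yNSCs than in neurons and 7 were higher than in NSCs. Over all genes these shares were 34.6% and 21.3%. Gbp2, a guanylate-binding protein that gathers on membranes around intracellular microbes, read 3.67, 4.05 and 3.92 in neurons, 4.21, 4.71 and 4.78 in NSCs and 8.53, 8.98 and 9.07 in yNSCs. Its yNSC arrays lay closer together than those of Ifit1 did, and the gap to the other 6 was wide. Gbp2 was 31.6-fold higher than in neurons (4.98 ± 0.18, adjusted p = 2.6e-10) and 19.6-fold higher than in NSCs (4.29 ± 0.18, adjusted p = 5.2e-09), and its other probe set gave log2 differences of 4.21 in both comparisons. Gbp3, a related protein, read 4.30, 5.06 and 4.51 in neurons, 7.49, 7.31 and 7.43 in NSCs and 8.42, 8.94 and 8.70 in yNSCs. NSCs already stood far above neurons, and yNSCs stood above NSCs. The log2 difference of Gbp3 was 4.06 ± 0.18 from neurons (adjusted p = 1.9e-09) and 1.28 ± 0.18 from NSCs (adjusted p = 0.00015).

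Irgm1 and Igtp, immunity-related GTPases that act on the vacuoles of intracellular pathogens, lay 3.23 and 2.79 above neurons and 2.81 and 3.03 above NSCs. Iigp1, of the same family, read 5.21, 5.77 and 6.43 in yNSCs against 3.49 ± 0.26 (SD, n = 3) in NSCs and 5.12 ± 0.13 in neurons, and overlapped the neurons. Its difference from NSCs was 2.31 ± 0.25 (adjusted p = 1.2e-05). Its difference from neurons was 0.69 ± 0.25 (adjusted p = 0.028), which was no longer called without neurons A, neurons C, yNSCs B or yNSCs C and came to 0.37 without the last of these. Mx1 and Mx2 encode dynamin-like GTPases that trap viral particles. Mx2 lay 1.13 above neurons and 1.28 above NSCs. Mx1 was near background in each group and differed by 0.19 from neurons (95% interval -0.09 to 0.47, adjusted p = 0.225) and by 0.49 from NSCs (adjusted p = 0.0092).

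Of 5 genes for membrane-associated antiviral proteins, 4 were higher and 1 was lower in yNSCs when set against neurons. Against NSCs, 1 was higher, 1 lower and 3 not called, shares near those of all genes (21.3% and 18.0%), and the median difference was -0.38. Ifitm2, which hinders fusion of viruses with cell membranes, read 5.91, 6.07 and 5.59 in neurons, 8.69, 8.79 and 8.8 in NSCs and 7.84, 7.73 and 7.73 in yNSCs. The groups were apart, with NSCs highest and yNSCs in between. Ifitm2 was 3.76-fold higher in yNSCs than in neurons (1.91 ± 0.12, adjusted p = 4.3e-08) and fell by 0.99 ± 0.12 against NSCs (adjusted p = 4.4e-05). Ifitm3, its close relative, read 7.93, 7.31 and 7.54 in neurons, 10.11, 9.87 and 9.83 in NSCs and 9.34, 9.53 and 9.80 in yNSCs. It was high in both stem cell groups, 1.96 above neurons in yNSCs (adjusted p = 5.0e-07), and its difference between yNSCs and NSCs was -0.38 (95% interval -0.74 to -0.02, adjusted p = 0.094). The Ifitm genes are related members of 1 family, and how far a probe set of one reads another was not tested. Bst2, the tetherin that holds budding viruses on the cell surface, read 5.41, 5.19 and 5.12 in neurons, 6.89, 7.07 and 7.05 in NSCs and 6.26, 6.55 and 7.04 in yNSCs. It lay 1.38 above neurons (adjusted p = 1.6e-05) and differed by -0.39 from NSCs (adjusted p = 0.097), a difference that was called without yNSCs C (-0.60, adjusted p = 0.0064).

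Rsad2 was the exception in this group. It encodes viperin, an enzyme of the endoplasmic reticulum that makes a chain-ending nucleotide. It read 5.83, 6.10 and 6.20 in neurons, 5.78, 5.91 and 5.83 in NSCs and 7.64, 8.26 and 9.16 in yNSCs, where all 3 arrays were above all others but differed widely from each other. Rsad2 was 4.96-fold higher than in neurons (2.31 ± 0.28, adjusted p = 1.4e-05) and 5.71-fold higher than in NSCs (2.51 ± 0.28, adjusted p = 1.9e-05). Ifitm1 read between 4.98 and 5.49 in neurons, 4.03 and 4.36 in NSCs and 4.13 and 4.52 in yNSCs, with neurons above the other 6 arrays. It was lower by 0.83 ± 0.16 in yNSCs than in neurons (adjusted p = 0.00054) and differed by 0.23 from NSCs (95% interval -0.12 to 0.57, adjusted p = 0.292).

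The 3 genes of the ADP-ribosylation module were higher in yNSCs than in neurons, and 2 of the 3 were higher than in NSCs. Over all genes these shares were 34.6% and 21.3%. Parp9 and its ubiquitin ligase partner Dtx3l act together on histones, and Parp14 is a related transferase. Dtx3l read 4.72, 4.36 and 3.97 in neurons, 6.57, 6.63 and 6.67 in NSCs and 6.80, 7.04 and 7.23 in yNSCs. The neurons stood far below, and the yNSC arrays lay just above the NSC arrays. The log2 difference of Dtx3l was 2.67 ± 0.17 from neurons (adjusted p = 3.9e-08) and 0.40 from NSCs (95% interval 0.03 to 0.77, adjusted p = 0.088), which was called without neurons A or neurons C. Parp9 lay 2.23 above neurons and 1.36 above NSCs. Parp14 lay 1.49 and 1.84 above them, although its other probe set was called in neither comparison.

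The remaining 4 measured genes were higher in yNSCs than in both other groups. Of all genes, 34.6% were higher than in neurons and 21.3% higher than in NSCs. Xaf1, a pro-apoptotic antagonist of the inhibitor XIAP, read 5.05, 5.17 and 4.85 in neurons, 3.67, 4.18 and 4.30 in NSCs and 8.09, 8.74 and 9.05 in yNSCs. The yNSC arrays stood above all others, and neurons above NSCs. Xaf1 was 12.2-fold higher than in neurons (3.60 ± 0.23, adjusted p = 3.2e-08) and 23.9-fold higher than in NSCs (4.58 ± 0.23, adjusted p = 1.8e-08). Its other probe set lay between 2.94 and 3.39 in all arrays and differed by -0.02 from neurons and 0.15 from NSCs, called in neither. Rtp4, a chaperone that moves receptors to the cell surface and also binds viral RNA, read 4.37, 3.88 and 4.49 in neurons, 4.72, 4.89 and 5.30 in NSCs and 8.32, 9.02 and 9.59 in yNSCs. No yNSC array came near the other 6. Rtp4 was 26.5-fold higher than in neurons (4.73 ± 0.28, adjusted p = 1.7e-08) and 16.1-fold higher than in NSCs (4.01 ± 0.28, adjusted p = 3.0e-07), while a second probe set at low level gave 0.52 (adjusted p = 0.013) and 0.37 (adjusted p = 0.081).

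Samd9l, a growth-restraining antiviral factor, read 3.97, 3.85 and 3.61 in neurons, 3.47, 3.28 and 3.84 in NSCs and 7.45, 7.66 and 7.49 in yNSCs. Its yNSC values lay close together, 3.72 above neurons and 4.0 above NSCs on average (adjusted p = 6.2e-10 and 2.3e-09). Ifi35, the partner of the interferon-induced protein NMI, read 3.32, 3.76 and 3.48 in neurons, 5.85, 5.80 and 6.18 in NSCs and 6.77, 7.12 and 7.21 in yNSCs. The 3 groups were apart, with NSCs in between, and the log2 difference was 3.51 ± 0.16 from neurons (adjusted p = 1.6e-09) and 1.09 ± 0.16 from NSCs (adjusted p = 0.00014). Ifi35 was near background in neurons in this probe set. Its other probe sets lay 1.25 and 0.61 above neurons and 0.94 and 0.74 above NSCs, and in both of them NSCs overlapped neurons.

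In native NSCs the direction was mixed. Against neurons, 13 of the 35 genes were higher in NSCs, 6 were lower and 16 were not called, where 33.3% of all genes were called higher and 34.1% lower. The median log2 difference was -0.13 for these genes and -0.07 for all genes, and it was 0.06 after a second quantile normalization and 0.69 once the 40% of genes with the lowest means were set aside, which left 23 of the 35 and moved the median of all genes to 0.34, so its sign is not settled. The genes that were higher were led by Ifitm2 (2.90 ± 0.12, adjusted p = 9.7e-10), Gbp3 (2.79 ± 0.18, adjusted p = 4.9e-08), Ifi35 (2.42 ± 0.16, adjusted p = 3.8e-08) and Ifitm3 (2.34 ± 0.17, adjusted p = 9.3e-08). Dtx3l, at 2.27, and Trim25, at 1.83, followed, and Bst2, Eif2ak2, Irf3, Parp9, Rtp4, Gbp2 and Irgm1 made up the rest. The call of Rtp4 was lost without neurons A, neurons B, NSCs B or NSCs C, and that of Irgm1 without neurons C, NSCs B or NSCs C. The genes that were lower were Iigp1 (-1.63), Adar (-1.42), Ifitm1 (-1.05), Xaf1 (-0.97), Ifit3 (-0.92) and Dhx58 (-0.55). Dhx58 was not called without neurons B or NSCs C. The other probe sets of Eif2ak2 and Irf3 included 1 each that was called lower. Neither other probe set of Ifi35 was called (0.31, adjusted p = 0.079, and -0.13, adjusted p = 0.54), and 1 of 2 for Trim25 was not (0.44, adjusted p = 0.059). Irf1, Mx1, Oasl2, Parp14, Samd9l and Usp18, not called with all arrays, each passed the threshold when certain single arrays were left out.

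The yNSC arrays differed among themselves more in these genes than in all genes. The median SD over the 3 yNSC arrays was 0.29 for the 35 genes and 0.10 for all genes, while the same genes had a median SD of 0.20 in neurons and 0.17 in NSCs, beside 0.15 and 0.13 for all genes. Replicate C was the highest yNSC array for 27 of the 35 genes, and replicate A the lowest for 27. Over all 18193 genes, C was highest for 6413 and A lowest for 6066. The median deviation from the yNSC mean was -0.28 in A, 0.03 in B and 0.25 in C, where it was within 0.01 of 0 for all genes. C lay above A for 31 of 35 genes, as it did for 46.1% of all genes, and the median of C minus A was 0.54.

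The widest ranges among yNSC arrays were those of Ifit1 (7.40, 8.24 and 9.27), Rsad2 (7.64, 8.26 and 9.16), Ifit3 (9.08, 9.78 and 10.52) and Rtp4 (8.32, 9.02 and 9.59). In each of them A was the lowest and C the highest yNSC array, yet A was still above all neuron and NSC arrays. C exceeded A by 2-fold or more for 7 of the 35 genes (20.0%), namely these and Iigp1, Oasl2 and Usp18, and for 49 of all genes (0.269%). In both other probe sets of Rsad2 C was highest and A lowest as well, with 6.31, 7.21 and 8.11 in the one of higher level. The genes for which C did not exceed A were Irf3, Ifih1, Adar and Ifitm2. Across the 35 genes the difference of yNSCs from NSCs went with C minus A (Pearson's r 0.64, Spearman's rho 0.60), as did, less closely, the difference from neurons (0.47 and 0.38). These describe values that share the yNSC arrays, and genes are not independent replicates.

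**Figure D4:**
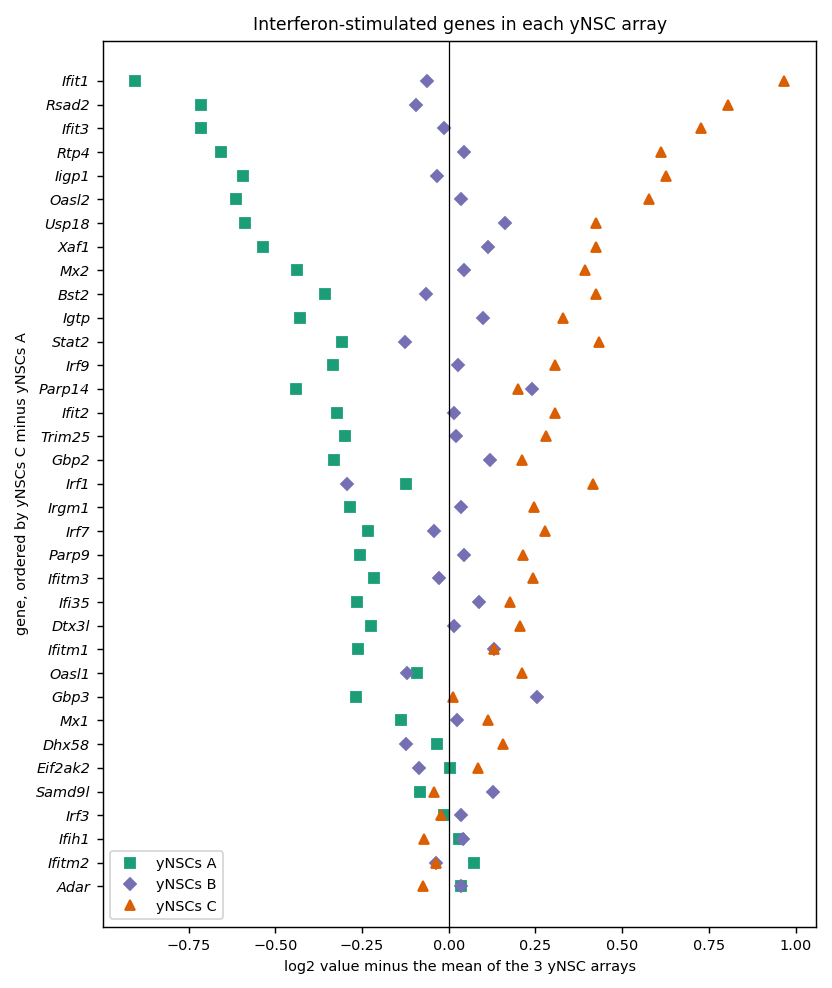
Log2 value of each yNSC array minus the mean of the 3 yNSC arrays (horizontal axis) for the 35 interferon-stimulated genes, ordered by replicate C minus replicate A. Replicate A (squares) lies on the left and replicate C (triangles) on the right for most genes, from Ifit1, with C 1.87 above A, down to Adar and Ifitm2, where C lies 0.11 below A.

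Leaving out replicate C changed few calls. Without it, 30 genes were higher and 2 lower than in neurons, with a median of 1.93, and 26 were higher and 2 lower than in NSCs, with a median of 1.27, the second lower gene being Bst2. The control probe sets for RNA integrity were close among the yNSC arrays. The log2 difference of the 3′ from the 5′ probe set of Gapdh was -0.04, -0.08 and -0.09 in A, B and C, beside -0.17 to -0.19 in neurons and 0.11 to 0.28 in NSCs, and that of Actb was 0.31, 0.29 and 0.19, beside 0.03 to 0.21 and 0.56 to 0.70. The median of C minus A was 0.12 for the microglia and macrophage markers. Of the 49 genes with C at least 1 above A, 41 belonged neither to the 35 genes nor to the further interferon-stimulated genes described below. Chosen after their values were seen, the chemokine genes Ccl2 (7.45, 8.07 and 9.37), Ccl7 (5.96, 6.6 and 7.78) and Cxcl2 (5.38, 6.16 and 7.05) were among them. So were the heat shock genes Hspa1a (8.65, 9.5 and 10.13) and Hspb1 (8.61, 9.57 and 10.03) and the stress-induced factor Atf3 (6.71, 7.11 and 8.15). Ccn1 (8.42, 9.03 and 9.97) and Ccn2 (6.07, 6.63 and 7.22) were among them too. The paper lists Ccn2, under the name Ctgf, as a YAP target. A gene outside both lists may still be one that interferon raises. What sets these arrays apart was not tested.

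Of 26 listed ligands, receptors and signalling genes of the pathway, 24 were measured. In yNSCs 11 lay higher and 7 lower than in neurons, with a median difference of 0.26, where 34.6% of all genes were called higher and 27.9% lower. Against NSCs 4 were higher and 3 lower, with a median of 0.05, where the shares over all genes were 21.3% and 18.0%. The interferon genes themselves were low. Ifnb1 read 4.0, 4.0 and 3.94 in neurons, 3.35, 3.69 and 4.14 in NSCs and 4.10, 4.0 and 4.0 in yNSCs, and its log2 difference was 0.05 from neurons (adjusted p = 0.79) and 0.31 from NSCs (adjusted p = 0.16). Ifna2 lay between 4.14 and 4.97 over all 9 arrays and was lower in yNSCs than in neurons by 0.35 (adjusted p = 0.017), with a difference of 0.19 from NSCs (adjusted p = 0.22). Ifna4 lay between 2.67 and 3.46 and Ifng between 2.25 and 2.75 over all 9 arrays, near background in each group, and neither was called in yNSCs against either group. RNA does not report on interferon in the medium.

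Of the receptor genes, Ifnlr1, for the interferon lambda receptor, was low. It lay between 4.28 and 4.99 over all arrays and was lower in yNSCs than in neurons by 0.40 (adjusted p = 0.0082). Ifnar1 lay between 7.76 and 7.89 in yNSCs, between 7.93 and 8.12 in NSCs and between 7.14 and 7.40 in neurons. Ifnar2 lay 1.27 above neurons in yNSCs (adjusted p = 4.6e-07) and 0.04 from NSCs (adjusted p = 0.82). Ifngr2, of the receptor for interferon gamma, was lower in yNSCs than in neurons by 0.87 and higher than in NSCs by 0.85. Ifngr1, the other chain, was higher than in neurons by 0.84 (adjusted p = 0.00029) and differed by -0.23 from NSCs (adjusted p = 0.26). Socs1 and Socs3, feedback inhibitors of JAK kinases, were higher in yNSCs than in both other groups. Socs1 read 4.05, 4.06 and 4.18 in neurons, 3.87, 4.12 and 3.83 in NSCs and 5.45, 5.63 and 6.44 in yNSCs, with all yNSC arrays above the rest and C highest. It lay 1.74 above neurons (adjusted p = 1.1e-05) and 1.90 above NSCs (adjusted p = 1.5e-05). Socs3 read 4.94, 4.93 and 4.20 in neurons, 8.02, 7.40 and 7.82 in NSCs and 8.49, 8.61 and 8.74 in yNSCs. It was high in both stem cell groups, 3.92 above neurons in yNSCs (adjusted p = 6.0e-09) and 0.87 above NSCs (adjusted p = 0.0048). Jak2 and Stat3, which also serve other cytokines, were lower in yNSCs than in NSCs, by 1.34 and 1.24.

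**Figure D5:**
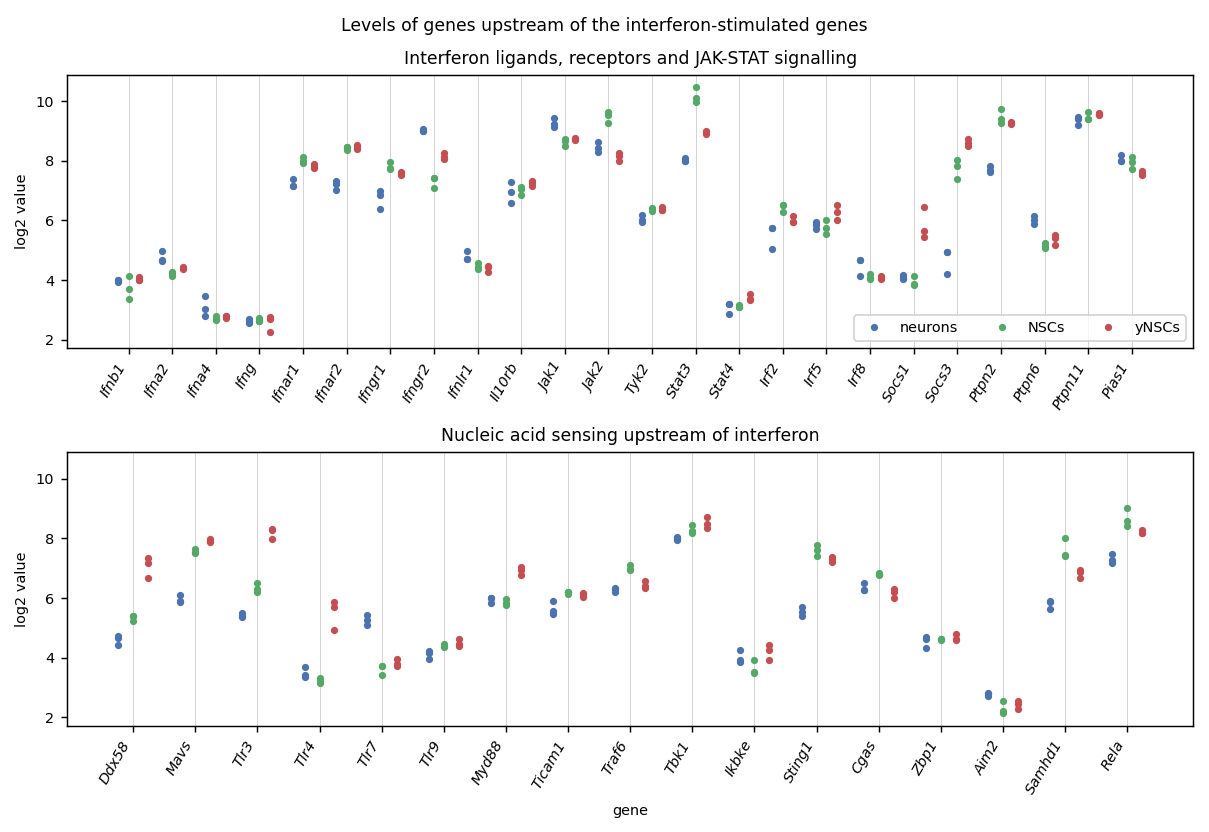
Log2 value (vertical axis) of 24 genes for interferons, receptors and JAK-STAT signalling (upper panel) and 17 genes for nucleic acid sensing (lower panel), with 1 point per array in neurons (blue), NSCs (green) and yNSCs (red). The interferon genes Ifnb1, Ifna2, Ifna4 and Ifng lie at 5 or below in all arrays, and Socs1, Ddx58, Tlr3 and Tlr4 are highest in yNSCs.

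Among genes that sense foreign nucleic acid or pass that signal on, 17 of 20 were measured. In yNSCs, 11 were higher and 2 lower than in neurons, with a median of 0.51 (34.6% and 27.9% of all genes), and 6 were higher and 4 lower than in NSCs, with a median of 0.12 (21.3% and 18.0% of all genes). Ddx58, which encodes the RNA sensor RIG-I and is itself raised by interferon, read 4.41, 4.65 and 4.74 in neurons, 5.24, 5.41 and 5.41 in NSCs and 6.67, 7.18 and 7.33 in yNSCs. It lay 2.46 above neurons (adjusted p = 4.6e-08) and 1.71 above NSCs (adjusted p = 4.2e-06). Tlr3, the endosomal receptor for double-stranded RNA, read 5.36, 5.49 and 5.41 in neurons, 6.22, 6.29 and 6.51 in NSCs and 8.28, 8.31 and 7.98 in yNSCs, 2.77 above neurons and 1.85 above NSCs. For Tlr3 and for Tlr4, a receptor for bacterial lipopolysaccharide that read 5.86, 5.69 and 4.92 in yNSCs, replicate C was the lowest of the yNSC arrays, unlike for most interferon-stimulated genes. Sting1, the adaptor for cytosolic DNA, lay 1.77 above neurons in yNSCs and differed by -0.30 from NSCs (adjusted p = 0.074). Cgas, the enzyme that senses that DNA, was lower in yNSCs than in NSCs by 0.64 (adjusted p = 0.00059).

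A second list held 41 further interferon-stimulated genes, of which 36 were measured. Of the 36, 20 were higher and 2 lower than in neurons, with a median of 0.45 (34.6% and 27.9% of all genes), and 23 were higher and 1 lower than in NSCs, with a median of 0.78 (21.3% and 18.0% of all genes). Cxcl10, a chemokine that draws T cells, read 4.17, 4.27 and 4.08 in neurons, 4.49, 4.48 and 4.28 in NSCs and 8.45, 9.63 and 10.14 in yNSCs. The difference was 5.23 from neurons (adjusted p = 2.0e-08) and 4.99 from NSCs (adjusted p = 1.3e-07), and again C was the highest yNSC array. Ifi204, of a family that binds DNA, lay between 6.48 and 7.18 in yNSCs and between 1.93 and 2.37 in the other 6 arrays. Trim30d (4.03 above neurons and 4.61 above NSCs), Trim30a (2.73 and 3.81) and Trim34a (2.61 and 4.15) encode TRIM proteins. Gbp7 lay 3.78 above neurons and differed by 0.57 from NSCs (adjusted p = 0.12). Oas1a, a synthetase that activates RNase L, was not called in yNSCs against neurons (-0.32, adjusted p = 0.14) or NSCs (0.43, adjusted p = 0.079), and Oas2 was not called either. Among the 36 genes, C was the highest yNSC array for 21 and A the lowest for 25, and the median of C minus A was 0.20. It was -0.01 for the ligand, receptor and JAK-STAT genes and -0.11 for the sensing genes. In NSCs against neurons, 8 of the 36 were higher and 17 lower, where 33.3% and 34.1% of all genes were.

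Motif matches were counted by class of call. Of 25 genes higher in yNSCs than in neurons with a promoter window, 15 held an ISRE-type match and 7 a GAS-type match. Both genes that were lower had a window, and 1 of them, Adar, held an ISRE-type match, in 1 of its 3 windows. Against NSCs, 11 of 19 higher genes and 4 of 7 genes not called held an ISRE-type match, as did Ifitm2, which was lower. Irf1, Irf7, Irf9, Ifit2, Oasl1, Oasl2, Ifi35 and Xaf1 were higher in both comparisons with no ISRE-type match in the window, which says only that these letters are not within it.

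Of the 35 genes, 14 had other probe sets, 22 in all. In yNSCs against neurons, 16 of the 22 were called in the same direction as the probe set that stood for the gene and 1 in the opposite one. Against NSCs, 10 were called in the same direction and 0 in the opposite one, and 5 were not called although the first probe set was. In NSCs against neurons, 5 were called in the same direction, 2 in the opposite one, and 11 were not called although the first was, so single genes in that comparison depend most on the choice of probe set.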

How the data were processed

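The authors hybridised biotin-labelled RNA from 3 neuron, 3 NSC and 3 yNSC cultures to Affymetrix arrays and deposited log2 expression values made with RMA (background correction, quantile normalization and probe set summary). Which version was used, and on which arrays jointly, is not given in the sources used here. Deposited values were used as they stand, with 45101 probe sets per array. Of these, 34945 carried 1 gene symbol in the array annotation, 932 several and 9160 none, and 64 were controls. Only probe sets with 1 symbol were used, the one with the highest mean over the 9 arrays standing for a gene.

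A model with 3 group means was fitted to all 9 arrays and 18193 genes with limma 3.58.1 in R 4.3.3 (6 residual and 5.59 prior degrees of freedom). Tests were two-sided with Benjamini-Hochberg adjustment over all genes, called at an adjusted p under 0.05 with no minimum fold. A difference is the log2 mean of the group named first less that of the other, ± the moderated SE. Replicates are those the labels call biological, and their number limits the precision. The fit was checked on simulated data. The genes, lists and tests were chosen with earlier results of these data known. Array values are printed for the regulators, for the 6 genes of largest called difference per comparison and for the 4 of widest yNSC range, and others were added for their role. Alternatives were another block, array set, filter, normalization, probe set rule, variance prior and fold minimum, and leaving out each array. Same-letter arrays of different groups had deviations correlated between -0.11 and 0.10 over genes, so the letters were not taken as pairs.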

Additional observations from a re-analysis of the deposited data

How the results depend on the processing

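Over all alternatives, the results for single genes kept their direction and their side of the threshold in 588 of 605 cases for yNSCs against neurons, 582 of 605 for yNSCs against NSCs and 547 of 605 for NSCs against neurons. In several alternatives the difference itself could not change, such as a replicate block or leaving out an array of the group not compared. These tallies therefore overstate how far the differences were put to a test. With a replicate block, yNSCs against neurons gave 31 higher and 2 lower genes, yNSCs against NSCs gave 27 and 1, and NSCs against neurons 13 and 7. The arrays share a letter but were not shown to be paired.

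Setting aside the 40% of genes of lowest mean left 23 of the 35 genes. Of these, 22 were higher and 1 was lower in yNSCs than in neurons, as were 5696 and 2901 of the 10916 genes kept. In yNSCs against NSCs, 17 were higher, as were 3136 of the 10916. In NSCs against neurons, 3 were lower, as were 3093 of the 10916. The mean was taken over all arrays, so a gene low in neurons and NSCs could be kept through its yNSC values. The counts that involve yNSCs under this filter are therefore no independent check of a higher level in yNSCs. With a 2-fold minimum, 1 of the 35 was lower in yNSCs than in neurons and 0 were lower in yNSCs than in NSCs. In NSCs against neurons, 8 were higher and 3 lower. Over all 18193 genes these counts were 1993, 1086, 3388 and 2288, in that order. Fewer genes tested and a stricter rule are what these alternatives are made of. Leaving out single arrays moved the number lower in yNSCs than in NSCs between 1 and 2, the higher value without yNSCs C. The difference of Dhx58 between yNSCs and neurons lay between -0.0067 and 0.37 when single arrays were left out, with the sign turned without neurons A.

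Other signs turned with the choice of probe set, and the cause was not tested. In yNSCs against neurons, single other probe sets gave -0.77 for Eif2ak2, -0.15 for Irf3 and -0.017 for Xaf1. In yNSCs against NSCs, one gave -0.26 for Adar. In NSCs against neurons, single other probe sets gave -1.69 for Eif2ak2, -0.58 and -0.017 for Irf3, -0.20 for Stat2, 0.24 for Dhx58 and -0.13 for Ifi35, and the mean of all probe sets gave -0.062 for Eif2ak2 and -0.017 for Stat2. In the same comparison a second quantile normalization gave 0.087 for Irf7, 0.024 for Ifit1 and 0.062 for the median of all 35 genes, which was 0.69 without the genes of lowest mean. Genes near background, such as Mx1 in all groups and Ifit1 in neurons and NSCs, have differences whose size the arrays resolve poorly.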
